A study of Homo sapiens with 6 samples.

Results

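Older primate L1 elements are the copies of the LINE-1 retrotransposon that spread in primate genomes before the youngest human subfamilies did. They were chosen here by repeat name alone: every locus whose name starts with L1P was kept, except the names L1PA2 to L1PA8 and L1PA8A. That gave 9801 loci under 30 names, out of 433837 repeat loci under 5230 names. By name they fell into 2308 loci of L1PA10 to L1PA13, 2733 loci of L1PA14 to L1PA17, 3144 loci of the L1PB names and 1616 loci of other L1P names (L1P, L1P1 to L1P5 and L1PREC2). The last set belongs to neither the L1PA nor the L1PB series, so the age of its copies is not given by the name.

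LINE-1 is the autonomous non-LTR retrotransposon of mammals. An intact copy carries an internal promoter in its 5′ end and encodes an RNA-binding protein (ORF1p) and a protein with endonuclease and reverse transcriptase activity (ORF2p), which together copy the RNA back into the genome. In the L1PA series a higher number marks an older subfamily, and L1PB is a separate primate lineage that was active alongside the older L1PA subfamilies. Copies of these ages are in general truncated and mutated and are not known to move, and many lie inside introns or next to other repeats, where transcripts that start elsewhere can run through them.

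The cells were HEK293T, an established line of human embryonic kidney origin with the SV40 large T antigen, and were given a chemically modified chimeric antisense oligonucleotide (ASO) by lipid transfection. In 3 libraries this oligonucleotide targeted the U7 small nuclear RNA (U7 ASO, 100 nM), and the genotype label reads U7 snRNA knockdown. The other 3 libraries had the control ASO, which the labels' protocols describe as directed against GFP, and the genotype label WT. U7 RNA guides the cleavage that ends the transcripts of replication-dependent histone genes, and the series title also ties it to the repression of HERV1/LTR12 elements. The labels do not say whether the 3 libraries of a group came from separate cultures, so p-values measure the spread between these libraries.

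The reads counted in repeat loci ran from 1926892 to 2025985 in the control libraries and from 2089822 to 2819540 in the U7 ASO libraries. Between 38.4% and 45.1% of them lay in the 3 loci with the most reads, so totals say little about dispersed repeats. Levels are given in CPM, reads scaled to library size, after TMM scaling. LTR12 and HERV9 elements together went from 2356 ± 173 to 24558 ± 6058 CPM (mean ± SD, n = 3 each). Repeat copies named U7 held 10, 6 and 12 reads in the controls and 10, 4 and 6 with the U7 ASO over 16 listed loci, too few to check the depletion, and they need not be the targeted gene. The tables hold no gene rows, so HEK293T markers could not be read, and they hold no coordinates, so no position, gene or sequence is given for a locus. Strand is not stated, so reads of an L1 copy and of a transcript crossing it in either direction are not separated.

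The summed level of older primate L1 elements was somewhat higher with the U7 ASO, but the groups overlapped. Reads numbered 13394, 14976 and 20031 in control replicates 1, 2 and 3, and 19156, 28818 and 34106 in U7 ASO replicates 1, 2 and 3. Scaled by the repeat names, these were 7171, 8037 and 9661 CPM in the controls and 9006, 11846 and 12134 CPM with the U7 ASO. Control replicate 3 lay above U7 ASO replicate 1, and the other U7 ASO libraries lay above every control. The means were 8290 ± 1264 and 10996 ± 1729 CPM (SD, n = 3 each), a ratio of 1.33 and a log2 ratio of 0.41. No p-value is given for this sum over the chosen names. Leaving out either control replicate 3 or U7 ASO replicate 1 ended the overlap, and the log2 ratio was then 0.53 in both cases. It was 0.63, still with overlap, when the libraries were scaled by single loci.

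The 4 name groups each overlapped as well. L1PA10 to L1PA13 elements stood at 2226 ± 277 CPM in the controls and 2695 ± 493 CPM with the U7 ASO, a log2 ratio of 0.28. L1PA14 to L1PA17 elements stood at 1903 ± 349 and 2664 ± 450 CPM, a log2 ratio of 0.49. L1PB elements, the most abundant of the 4 groups, stood at 2762 ± 426 and 3829 ± 519 CPM, a log2 ratio of 0.47. The other L1P names stood at 1399 ± 216 and 1808 ± 271 CPM, a log2 ratio of 0.37. In all 4 groups control replicate 3 lay above U7 ASO replicate 1. For L1PA10 to L1PA13, control replicate 2 (2172 CPM) also lay above U7 ASO replicate 1 (2127 CPM).

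**Figure D1:**
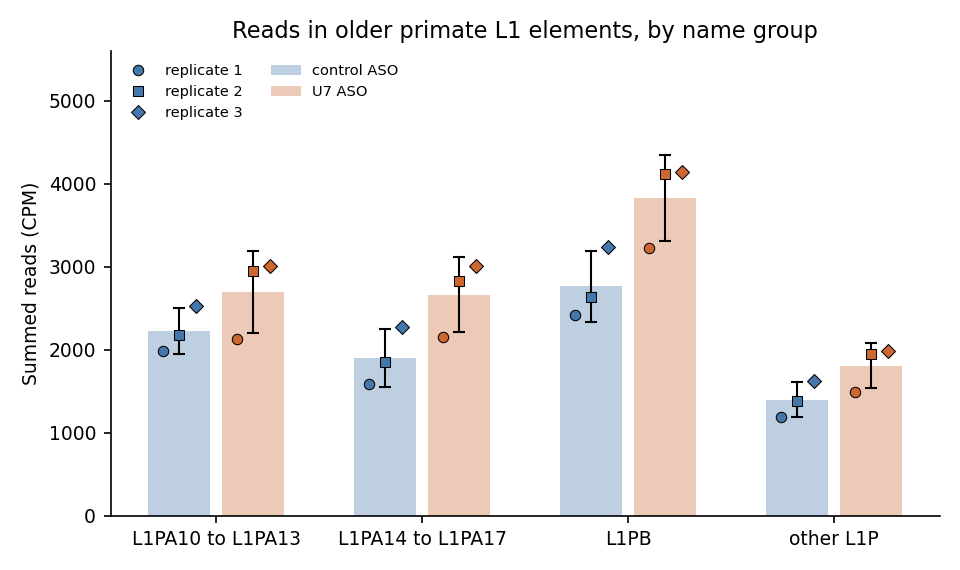
Summed reads (CPM, vertical axis) of older primate L1 elements in 4 name groups. Bars are means and error bars SD over 3 libraries, and points are single libraries with a symbol per replicate number. In each group control replicate 3 lies above U7 ASO replicate 1, so the groups overlap, as in L1PB with 3238 CPM in the former and 3229 CPM in the latter.

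Other L1 elements also had higher means with the U7 ASO, with overlapping groups. Neither test of the difference from older primate L1 could pass at 0.05, since 3 libraries against 3 give no p under 0.1. The younger primate L1 elements (L1HS and L1PA2 to L1PA8) went from 12121 ± 2135 to 14610 ± 3081 CPM, and the L1MA and L1MB elements, the next older L1 classes, from 14087 ± 2220 to 16408 ± 1903 CPM. Within a library, the log2 ratio of older primate L1 to younger L1 reads was −0.48, −0.59 and −0.56 in the controls and −0.32, −0.36 and −0.52 with the U7 ASO. The difference of means was 0.14 (exact two-sided permutation p = 0.2, adjusted p = 0.2 over 2 ratios). Against L1MA and L1MB the log2 ratio was −0.77, −0.74 and −0.78 in the controls and −0.66, −0.59 and −0.50 with the U7 ASO. That difference of 0.18, or 1.13-fold, was higher in 3 of 3 libraries, with p = 0.1 (exact two-sided permutation test, adjusted p = 0.2), the smallest p that 3 libraries against 3 allow. Without the raised loci of both classes it was 0.12, at the same p in the exact permutation test.

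Reads were also spread over more loci with the U7 ASO. A read was present at 1941, 2542 and 2594 older primate L1 loci in the controls and at 2690, 3983 and 3868 loci with the U7 ASO. Libraries with more reads reach more loci, so the number expected at an equal 13394 reads was computed. It was 1941, 2511 and 2470 in the controls and 2559, 3479 and 3295 with the U7 ASO. The ratio of means was 1.35, beside 1.29 for the younger L1 elements and 1.26 for L1MA and L1MB at their own equal reads. The calculation drew reads singly, although 86.2% to 89.9% of the older primate L1 counts above 0 were even. If reads came in pairs, it favours the libraries with more reads, so depth may not be fully equalized. U7 ASO replicate 1 lay only slightly above control replicate 2. Over all repeat loci, reads were also present at more loci with the U7 ASO, before any equalizing of reads. There were 96631, 120658 and 109027 such loci in the controls and 118352, 160749 and 157931 with the U7 ASO. The wider spread was thus not particular to L1 elements. Single loci held small shares: the 10 largest took between 5.92% and 7.92% of the older primate L1 reads of a library.

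Of the 30 names, 26 passed the filter on low counts, and 1 of these rose. All 26 had a positive log2 fold change, from 0.07 to 1.27 with a median of 0.39. Of all 2236 repeat names tested, 49.4% were positive, and the median was −0.01. The names were read in the same 6 libraries, so their signs are not independent. Positive names were 23 of 26 without control replicate 1, 26 of 26 without control replicate 2 and 26 of 27 without control replicate 3. They were 25 of 27 without any 1 of the U7 ASO libraries. Other L1 names leaned the same way, with 8 of 9 younger L1 names positive (median 0.33) and 18 of 19 L1MA and L1MB names (median 0.21). With edgeR's quasi-likelihood test and adjustment over all names, 1 name was raised, 0 were lowered and 25 did not pass. Over all names 1.52% were raised and 1.03% lowered, so a count of 1 in 26 is near the background. An unadjusted p under 0.05 was found for 7 of the 26. The groups did not overlap, with the U7 ASO higher, in 8 of the 26, where 9.93% of all names tested did so. In the opposite direction it was 0 of the 26, with 10.2% for all names tested.

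L1PA15-16 was the raised name, a label for copies placed between the L1PA15 and L1PA16 subfamilies. Control replicates 1, 2 and 3 held 126, 150 and 210 reads at its 105 listed loci, and U7 ASO replicates 1, 2 and 3 held 415, 430 and 646. The groups were well apart, the lowest U7 ASO library being at 177 CPM and the highest control at 101 CPM. The level went from 83.1 ± 17.1 to 201 ± 27.0 CPM (SD, n = 3 each), which edgeR fitted as 1.27 on the log2 scale (SE 0.24, 95% interval 0.76 to 1.78), with adjusted p = 0.00329. A pair of loci carried 73.3% of this rise in CPM, L1PA15-16_dup2_5177237 and L1PA15-16_dup82_3058328. Without the former, which alone carried 46.5%, the log2 fold change was 0.84 and the name did not pass (adjusted p = 0.112). The call held in the 14 other alternatives, and adjusted p ran from 2.09e-05 to 0.112 over all 15.

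The neighbouring L1PA names had smaller values and did not pass. L1PA16 held 994, 1216 and 1694 reads in the controls and 1601, 2535 and 3242 with the U7 ASO, or 667 ± 143 and 983 ± 207 CPM (0.56 on the log2 scale, SE 0.20, edgeR adjusted p = 0.193). Its control replicate 3, at 817 CPM, lay above U7 ASO replicate 1, at 753 CPM. L1PA16 passed without U7 ASO replicate 1 and with a replicate block, and its adjusted p ran from 0.018 to 0.648 over the alternatives. Its difference was spread, with 4.19% of the CPM difference at the locus that added most, L1PA16_dup514_3039743. For L1PA14 the groups did not overlap (237 ± 54.4 and 346 ± 41.1 CPM), with an edgeR log2 fold change of 0.55 and adjusted p = 0.234. L1PA15, L1PA17 and the 4 names L1PA10 to L1PA13 had log2 fold changes between 0.07 (L1PA12) and 0.42 (L1PA17).

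Among the L1PB names, 0 of 8 passed. L1PB1, the most abundant older primate L1 name, held 2239, 2726 and 3698 reads in the controls and 3702, 5695 and 6739 with the U7 ASO. In CPM it stood at 1482 ± 293 and 2160 ± 364, or 0.54 on the log2 scale (SE 0.18, edgeR adjusted p = 0.145). U7 ASO replicate 1, at 1740 CPM, lay below control replicate 3, at 1784 CPM, and without U7 ASO replicate 1, or with a replicate block, the name passed (adjusted p from 0.0117 to 0.567 over the alternatives). The locus L1PB1_dup483_3038588 carried 32.7% of its difference, and without that locus the log2 fold change was 0.39 (adjusted p = 0.338). L1PB3, at 255 ± 69.1 and 383 ± 68.3 CPM, was at 0.59 on the log2 scale (edgeR adjusted p = 0.216), with 32.1% of the difference at L1PB3_dup127_309219. L1PB2 had a log2 fold change of 0.07 with a 95% interval from −0.35 to 0.50. L1PB4, L1PBa and L1PBa1 did not overlap between the groups, at log2 fold changes of 0.37, 0.47 and 0.31. L1PB and L1PBb, at 0.48 and 0.50, had wider intervals.

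Of the other L1P names, 9 were tested and 0 passed. L1P1 stood at 228 ± 57.7 and 336 ± 47.8 CPM without overlap, or 0.56 on the log2 scale (SE 0.23, edgeR adjusted p = 0.238), and passed with a replicate block. The locus L1P1_dup100_2569761 carried 65.8% of that difference, and without it the log2 fold change of L1P1 was 0.22. L1PREC2 stood at 589 ± 72.2 and 745 ± 131 CPM (log2 fold change 0.34). L1P2, L1P3, L1P4 and L1P4a had log2 fold changes of 0.19, 0.42, 0.21 and 0.55. L1P4b, L1P4e and L1P5 held 76, 162 and 88 reads over the 6 libraries, and the narrowest of their 95% intervals, that of L1P4e, ran from −0.49 to 2.28. The names L1P, L1P3b, L1P4c and L1P4d were not tested and held 10, 23, 8 and 43 reads.

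**Figure D2:**
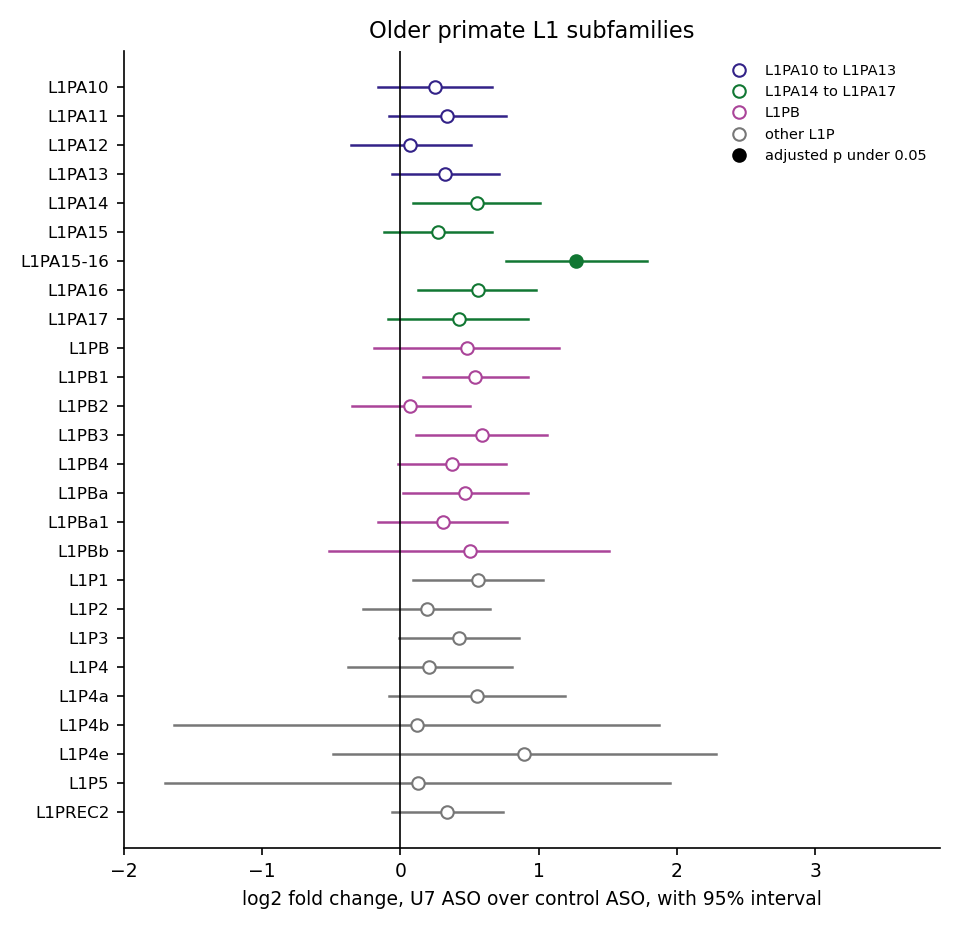
Log2 fold change of each tested older primate L1 name (U7 ASO over control ASO, horizontal axis) with its 95% interval, coloured by name group. Points lie to the right of 0 for all 26 names, and the filled point, L1PA15-16 at 1.27, is the name with an adjusted p under 0.05.

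At the level of single loci, a small set of copies rose far and most did not pass. Only 298 of the 9801 loci (3.04%) had enough reads to be tested, since 69.5% of the listed loci held 10 or fewer reads over the 6 libraries. Of the 298, 19 (6.38%) were raised, 1 was lowered and 278 did not pass (edgeR, adjusted over all 14380 loci tested). Raised loci made up 4.49% of all loci tested, 2.28% of those outside LTR12 and HERV9, 2.88% of the younger L1 loci and 1.99% of the L1MA and L1MB loci. Lowered loci made up 0.473% of all loci tested. The number raised was 8 without U7 ASO replicate 1, 8 without U7 ASO replicate 3, 12 with limma-voom and 27 with DESeq2. In 16 of the 19 the controls held 0 reads, so the filter admitted these loci because the U7 ASO libraries held enough. The share raised holds for tested loci only. Such loci were 9 of the 16 raised younger L1 loci and 7 of the 8 raised L1MA and L1MB loci. Over all tested loci they were 382 of the 645 raised. The 6.38% beside the other shares is therefore no result about older primate L1 copies. The groups did not overlap, with the U7 ASO higher, at 52 of the 298 loci (12.2% of all loci tested), and with the U7 ASO lower at 11 (8.36% of all loci tested). The controls held 0 reads at 20 of the 298, and at 425 of all 14380 loci tested. At these loci the filter fixed the direction, so the count of 52 is no result about older primate L1 copies.

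The 19 raised loci, out of 9801, accounted for part of the summed difference, and they were called for their rise in these same data. Together they held 32, 16 and 32 reads in the controls and 1209, 1227 and 2082 with the U7 ASO, which was 4.26% to 6.31% of the older primate L1 reads of a U7 ASO library. On the CPM scale they made up 21.8% of the difference between the group means. The 278 tested loci that did not pass stood at 2545 ± 260 and 2632 ± 154 CPM and made up 3.24% of it. The 9503 loci that were not tested stood at 5721 ± 1005 and 7759 ± 1556 CPM and made up 75.3%, with control replicate 3 (6802 CPM) above U7 ASO replicate 1 (5963 CPM). Most of the summed difference thus lay in copies with few reads each, for which no locus can be named.

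**Figure D3:**
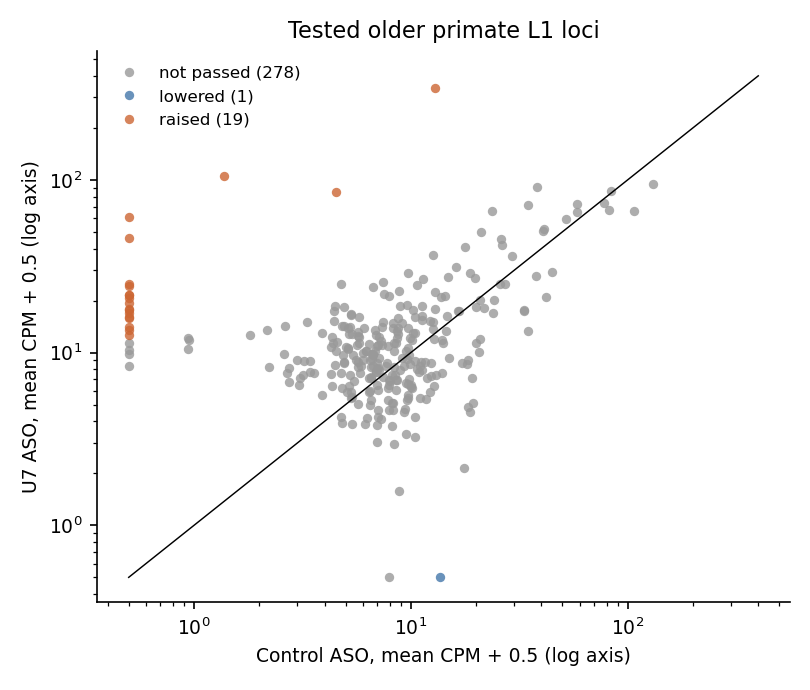
Mean level of each tested older primate L1 locus in the control libraries (horizontal axis) and in the U7 ASO libraries (vertical axis), as CPM + 0.5 on log axes. Each point is 1 of 298 loci and the line marks equal levels. Most of the 19 raised loci stand at the left edge, at 0 control reads, and most of the 278 loci that did not pass lie around the line.

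The raised locus with the most reads was L1PB1_dup483_3038588. It held 22, 4 and 32 reads in the controls and 423, 444 and 881 with the U7 ASO, so every U7 ASO library was far above every control. The level went from 12.4 ± 8.85 to 342 ± 122 CPM on the scale of single loci (log2 fold change 4.77, SE 0.53, edgeR adjusted p = 6.13e-05). The next running number is LTR12C_dup28_3038589, a long terminal repeat of the HERV9 family, with 28 control and 1090 U7 ASO reads. Beyond it lie raised loci of the internal part HERV9NC-int, with 525 U7 ASO reads at HERV9NC-int_dup5_3038592, and a further LTR12C copy, LTR12C_dup29_3038593, with 1192. On its other side 3 more L1PB1 loci (L1PB1_dup480_3038583, L1PB1_dup481_3038585 and L1PB1_dup482_3038586) held 0 control reads and 14, 40 and 44 U7 ASO reads.

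L1P1_dup100_2569761 and L1PA15-16_dup2_5177237 also had some control reads. The former held 4, 0 and 0 reads in the controls and 158, 138 and 238 with the U7 ASO (log2 fold change 6.80, adjusted p = 4.68e-05, edgeR). The latter held 6, 12 and 0 reads in the controls and 129, 138 and 158 with the U7 ASO (log2 fold change 4.39, adjusted p = 0.000944, edgeR). Neither had an LTR12 or HERV9 locus nearby, the nearest listed one being 715 and 712 running numbers away. L1PA5_dup331_2569755, 6 running numbers from L1P1_dup100_2569761, held 0 control and 23 U7 ASO reads and was not tested. The raised locus nearest to L1P1_dup100_2569761 was L1PA5_dup333_2569804, 43 running numbers away. Around L1PA15-16_dup2_5177237, though, other repeats with few or no control reads had reads with the U7 ASO, among them AluSx_dup84_5177243 (0 and 76 reads), MIRb_dup62_5177246 (0 and 64) and AluY_dup60_5177229 (0 and 62), of which the AluSx locus was raised.

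At the other 16 raised loci the 3 control libraries together held 0 reads, and their folds are lower bounds computed against 3 reads over the control group. These bounds take reads as independent, and since most counts were even they may be too high. L1PB3_dup127_309219 held 60, 106 and 144 reads with the U7 ASO, at least 94.7-fold higher (adjusted p = 5.90e-05, edgeR). It directly precedes LTR12C_dup107_309220, with 18 control and 3080 U7 ASO reads. L1PA15-16_dup82_3058328 held 84, 32 and 117 reads, at least 71.2-fold higher, and lies 2 running numbers before LTR12C_dup39_3058330, with 0 and 131 reads. Between the 2 stands the older L1 locus L1PA17_dup255_3058329, with 0 and 40 reads, which did not pass (adjusted p = 0.145, edgeR). L1PA10_dup450_1834554 held 24, 34 and 68 reads, at least 38.5-fold higher, and L1P3_dup334_3152749 held 32, 52 and 35, at least 36.4-fold higher. Each of these has a raised LTR12C locus within 3 running numbers.

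Smaller raised loci showed the same surroundings in part. L1P4_dup247_3108153 held 23, 25 and 49 reads with the U7 ASO, at least 29.6-fold higher, and lies beside a raised pair of LTR12C copies with 2491 and 1263 U7 ASO reads. L1PB1_dup128_1903327 held 12, 20 and 58 reads, at least 27.5-fold higher, 5 running numbers from a raised LTR12C locus. L1PA16_dup557_3954125 held 34, 19 and 34 reads, at least 26.6-fold higher, and lies among raised loci of the endogenous retrovirus MER76-int, 6 running numbers from LTR12C_dup132_3954119, with 0 control and 393 U7 ASO reads. L1PB4_dup338_2090282 held 35, 38 and 32 reads, at least 32.1-fold higher, and its nearest listed LTR12 or HERV9 locus was 323 running numbers away. L1PA13_dup851_3109313, at least 31.8-fold higher, and L1PBa_dup14_1247531, at least 31.2-fold higher, lie 4 and 1 running numbers from an LTR12 and an LTR12C copy that were not tested, with 2 control and 0 U7 ASO reads and with 12 and 22.

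The remaining 6 raised loci were named after their values were seen. They are L1PA16_dup104_1899078, L1PA16_dup337_3359808, L1PA16_dup789_1787069, L1PA11_dup365_3151436, L1PA11_dup202_1113710 and L1PBa1_dup9_3583172, which held between 62 and 84 U7 ASO reads each and 0 control reads. Each lost its call in 4 to 9 of 14 alternatives. Over all 19 raised loci the median log2 fold change was 7.80 as fitted and 4.78 with loci at 0 control reads set to their bound. The calls of 6 of the 19 held in every alternative run for them: L1PB1_dup483_3038588, L1P1_dup100_2569761, L1PB3_dup127_309219, L1P3_dup334_3152749 and both L1PA15-16 loci.

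**Figure D4:**
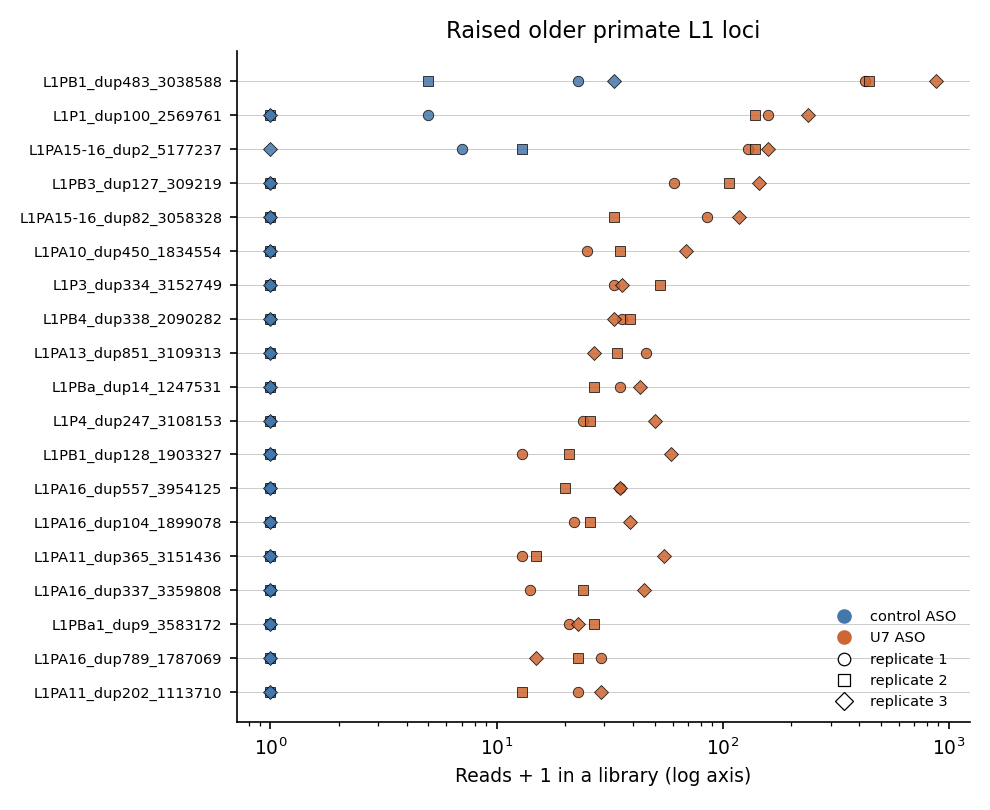
Reads + 1 in each of the 6 libraries (horizontal log axis) at the 19 raised older primate L1 loci, ordered by their U7 ASO reads. Blue symbols are control libraries, orange symbols U7 ASO libraries, and the symbol gives the replicate number. At each locus the U7 ASO libraries lie to the right of the controls, and 16 of the loci stand at 0 reads in all 3 control libraries.

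The lowered locus was L1PB1_dup710_734473, with 10, 32 and 18 reads in the controls and 0 in all 3 U7 ASO libraries. It was at least 21.8-fold lower by a bound of the same kind (adjusted p = 0.0258, edgeR). Its call was lost in 7 of 14 alternatives, with adjusted p-values up to 0.344, among them those without control replicate 2, control replicate 3 or any 1 of the U7 ASO libraries. The nearest raised locus was 8296 running numbers away.

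The copies with the most reads in control cells did not pass in either direction. L1PB1_dup903_3079661 was the leading locus of all 3 controls, with 158, 198 and 243 reads, and held 126, 157 and 195 with the U7 ASO (log2 fold change −0.46, adjusted p = 0.679, edgeR). L1PA12_dup37_612550 held 150, 154 and 188 reads in the controls and 107, 114 and 108 with the U7 ASO. Its groups did not overlap and it was lower with the U7 ASO, at a log2 fold change of −0.70 (adjusted p = 0.353, edgeR). L1PA15_dup200_2278781 held 72, 130 and 184 control reads and 68, 172 and 199 U7 ASO reads, and L1PA11_dup24_5006797 held 80, 112 and 166 and then 122, 136 and 106, each with overlapping groups. L1PREC2_dup209_602373, L1PA13_dup147_4394169 and L1PA10_dup176_612549, the leading loci of their names, had log2 fold changes of −0.30, 0.32 and 0.17. The names differed in how much they rested on 1 copy: the leading locus held 25.2% of the reads of L1PA12, 21.3% of those of L1PBa1 and 1.48% of those of L1PA16.

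The position of the tested loci relative to LTR12 and HERV9 elements was read from the running numbers. The running numbers rise through the tables and copy numbers of a name rise with them but start again 23 times (counted in AluSx), so adjacent numbers were read as adjacent annotated repeats; the distance in bases is not known. Of the 19 raised loci, 14 (73.7%) had a listed LTR12 or HERV9 locus within 20 running numbers, and all 14 within 6. Among the 278 loci that did not pass, 12 (4.32%) had one within 20. Of the 14 near raised loci, 13 had 0 control reads and so were tested only because the U7 ASO libraries were high there, which fixed their direction. Among tested loci with control reads, 1 raised and 11 not passed were near, and 2 raised and 263 not passed were farther away, so these shares support nothing about nearness. Counting raised LTR12 and HERV9 loci alone, 8 of the 19 raised loci and 1 of the 278 had one within 20. Under the same filter, 160 of 414 near loci (38.6%) and 157 of 13503 other loci (1.16%) were raised among all tested loci outside LTR12 and HERV9. These counts were 5 of 21 and 11 of 534 for the younger L1, and 5 of 17 and 3 of 385 for L1MA and L1MB. These are descriptions of counts without a test, and a listed locus is one with a read in at least 1 library.

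**Figure D5:**
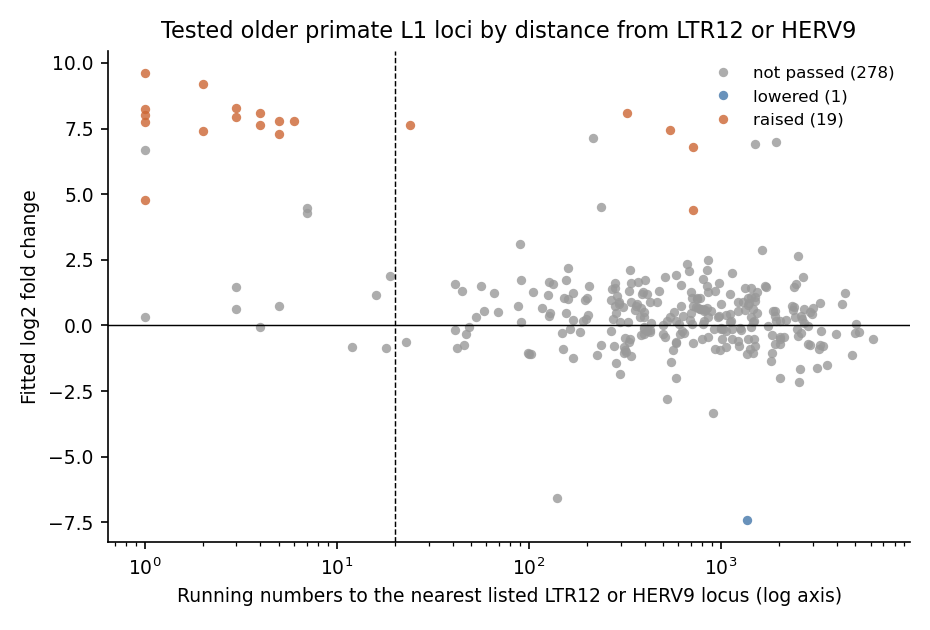
Fitted log2 fold change (vertical axis) of the 298 tested older primate L1 loci against the number of running numbers to the nearest listed LTR12 or HERV9 locus (horizontal log axis). The dashed line marks 20 running numbers. To its left lie 14 raised loci, all within 6 running numbers, and 12 that did not pass, and to its right 5 raised loci, the lowered one and 266 that did not pass.

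Sums over all listed copies, tested or not, do not depend on that filter, but they do depend on which loci were listed. A read was present at 377 to 430 LTR12 and HERV9 loci in a control library and at 1604 to 1778 in a U7 ASO library. Many of these loci were thus listed through U7 ASO reads alone, so the sums are descriptions and support nothing about nearness. The 413 older primate L1 loci within 20 running numbers of a listed LTR12 or HERV9 locus held 462, 398 and 528 reads in the controls and 1926, 2172 and 3519 with the U7 ASO. That was 239 ± 21.9 and 1017 ± 204 CPM, a 4.26-fold ratio of means, with every U7 ASO library above every control. The 9388 loci farther away stood at 8051 ± 1257 and 9979 ± 1627 CPM, a 1.24-fold ratio, with control replicate 3 (9406 CPM) above U7 ASO replicate 1 (8101 CPM). The near loci were 28.8% of the summed difference. Whether reads at them belong to transcripts that start in LTR12 elements was not tested.

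The 12 near loci that did not pass were mixed, as 5 of them, named after their values were seen, show besides L1PA17_dup255_3058329. L1PB1_dup2_398 held 2 control and 58 U7 ASO reads and L1PA14_dup167_735828 held 2 and 50, each 7 running numbers from an LTR12C copy and without overlap between the groups (adjusted p = 0.154 and 0.239, edgeR). L1PBa1_dup35_3934609, directly beside an LTR12C copy, held 188 control and 258 U7 ASO reads with overlapping groups (log2 fold change 0.34). L1PA10_dup177_4603965 and L1PB1_dup4_2681 had negative values, −0.82 and −0.85, at 12 and 18 running numbers from an LTR12C copy, with overlapping groups.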

How the data were processed

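The deposited values are read counts per repeat locus, 1 table per library, made by the authors with STAR 2.5.3a and featureCounts 1.5.0-p1 (GRCh38), per the submitters' processing notes. The sources used here do not give the repeat annotation, the strand setting or the treatment of multi-mapping or paired reads. Between 86.2% and 89.9% of the older primate L1 counts above 0 were even. Reads of near-identical copies may have been split, dropped or moved between copies.

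Names and lists were chosen with earlier results of these data known. Counts of all loci, and sums over all repeat names, were each fitted with edgeR 4.0.16 (quasi-likelihood, two-sided, TMM, filterByExpr with minimum count 10 and total 15) under R 4.3.3, with Benjamini-Hochberg adjustment over all features and calls at an adjusted p under 0.05. Standard errors were derived from each fitted fold change and its F value. CPM are edgeR-scaled, by names for sums and by loci for single loci. Ratios within libraries used exact permutation tests. Alternatives were DESeq2 1.42.0, limma-voom 3.58.1, other scalings, no filter, a replicate block and leaving out each library. The rule named up to 10 raised and up to 10 lowered loci with the largest folds and no overlap (1 was lowered), the leading locus of a name and the 5 with the most reads. Others are marked as named after their values were seen, or are neighbours of a named locus or the locus that added most to a name. Intervals of fold changes include the spread between libraries, whereas lower bounds on folds cover only the counting error of independent reads. Where reads were counted in pairs these bounds are too high. In simulated counts for the U7 ASO comparison, 2-fold changes (1 log2 unit) were recovered for 30.4% of changed names among 2236 and 0% of changed loci among 14380. In the same simulation 4-fold changes (2 log2 units) were recovered for 71.7% of the names and 9.21% of the loci. The repeat tables give no coordinates, so no sequence is printed.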

Additional observations from a re-analysis of the deposited data

How the results depend on the processing

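The number of raised older primate L1 names was 1 in 7 other settings (3 other scalings, TMM without LTR12 and HERV9, no filter, limma-voom and DESeq2), and 0 names were lowered in any. It was 4 with a replicate block (L1P1, L1PA15-16, L1PA16 and L1PB1) and 1 to 3 when a library was left out, with 3 without U7 ASO replicate 1. Same-numbered libraries deviated together weakly or not at all (correlations 0.10, −0.03 and 0.10 over 2236 names). Libraries with different numbers ran from −0.13 to 0.05, so the 0.10 values were the highest. Control replicate 2 correlated best with U7 ASO replicate 1, at 0.04. These values do not settle whether the numbers pair the libraries, and the main fit did not pair them. Over all names tested, 133 were called with the block and 57 in the main fit. The number of raised loci was 12 with limma-voom, 27 with DESeq2, 17 with the block and 8 to 20 when a library was left out. That of lowered loci was 0 with limma-voom and with the block, 2 with DESeq2 and 0 to 2 when a library was left out. The log2 ratio of the sum stayed positive, between 0.31 and 0.63, the latter with the scaling of single loci, an alternative added after seeing the data, as were the 2 that leave out loci near raised LTR12 or HERV9 or the raised loci. Upper-quartile scaling and library totals moved the median log2 fold change of all loci from 0.06 to −0.09 and that of older primate L1 loci from 0.43 to 0.27. Signs turned for some values near 0. When a library was left out, the log2 fold change ran from −0.14 (without control replicate 1) to 0.38 for L1P4b, from −0.43 (without U7 ASO replicate 1; −0.32 without control replicate 1) to 0.70 for L1P5, from −0.03 (without control replicate 1) to 0.19 for L1PA12, from −0.01 (without U7 ASO replicate 2) to 0.18 for L1PB2 and from −0.09 (without U7 ASO replicate 3) to 0.43 for L1P4. It ran from −0.24 (without control replicate 1; −0.12 without U7 ASO replicate 2 or 3) to 0.37 for L1PA15_dup200_2278781, from −0.29 to 0.15 (without control replicate 3; 0.10 without U7 ASO replicate 3) for L1PA11_dup24_5006797 and from −0.03 (without U7 ASO replicate 3) to 0.38 for L1PA10_dup176_612549. With library totals L1PA10_dup176_612549 was at −0.01 and L1PA15_dup200_2278781 at −0.15, and the latter at −0.10 with upper-quartile scaling. The causes were not tested. Few reads per copy limit the locus results: 3.04% of listed copies could be tested.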
